A study of Homo sapiens with 8 samples.

Results

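The regions described here were m6A-seq regions that carried a peak in both METTL3 knockdown (siMettl3) replicates but in only 1 of the siControl replicates. They were found by joining peaks of the 4 samples that shared at least 1 base and keeping those joined regions with this pattern of calls. There were 977 of them, 7.99% of the 12221 joined regions and 17.8% of the 5493 regions with a peak in both siMettl3 replicates. They fell into 2 sets of unequal size. In 209 regions (1.71% of all regions) the control peak came from siControl replicate 1, and these are called siControl1-shared regions. In 768 regions (6.28%) it came from siControl replicate 2, and these are called siControl2-shared regions. The regions were chosen by the peak calls of all 4 samples, which rest on score, tags and enrichment. Every value of length, tags, score and enrichment is given as a description, and no test was applied to it.

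N6-methyladenosine (m6A) is placed on nuclear mRNA by a complex of METTL3, its catalytic subunit, with METTL14. It is removed by demethylases such as FTO and is read by YTH domain proteins such as YTHDF2, which directs bound mRNA to decay. In m6A-seq, fragmented mRNA is pulled down with an antibody against m6A, and stretches where the pulled-down RNA exceeds the background are called as peaks. A peak therefore depends on the methylation of a transcript, on how strongly the transcript is expressed, and on the cutoff of the peak caller.

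The cells were HepG2, a human liver cancer line. Cells of the siControl group received a control siRNA and cells of the siMettl3 group an siRNA against METTL3, and both were harvested 48 h later. There were 2 replicates per group and no other agent or genotype. An siRNA lowers its target for a time and does not delete the gene. METTL3 itself was not measured by the peak lists, so the labels could not be checked against it here. Nothing in the labels says that the replicates came from separate cultures.

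The 4 lists held between 6888 and 8577 peaks. siControl replicate 2 had more peaks (8162) than siControl replicate 1 (6888), and siMettl3 replicate 2 (8577) more than siMettl3 replicate 1 (7138). The lowest score in any list was 50, where the score is −10·log10 of the peak caller's p-value. The tags (sequenced reads) inside peaks summed to between 1945803 and 2426342, but the library depth behind them is unknown. The regions described here held 3.05% of the peaks of siControl replicate 1, 9.47% of those of siControl replicate 2, and 13.8% and 11.5% of those of siMettl3 replicates 1 and 2.

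The siControl2-shared regions outnumbered the siControl1-shared regions 3.67 to 1. Of the 977 regions, 78.6% took their control peak from siControl replicate 2. Over all 3590 regions with a peak in exactly 1 siControl replicate, this share was 67.8%. It differed with the calls in the knockdown samples. Where neither siMettl3 replicate had a peak, siControl replicate 2 alone was called in 814 regions and siControl replicate 1 alone in 677, a share of 54.6%. Where only siMettl3 replicate 1 had a peak, the counts were 330 and 93 (78.0%). Where only siMettl3 replicate 2 had one, they were 522 and 177 (74.7%). Regions with any siMettl3 peak thus went to siControl replicate 2 in about the same proportion, whichever siMettl3 replicate carried the peak, and regions without one were split more evenly. With the same number of peaks taken from every sample, the most significant 6888, the sets held 266 and 492 regions, and the share with siControl replicate 2 was 64.9%. With scores of at least 70 this share was 81.3%, and with an FDR of at most 50% it was 85.8%. The share of 67.8% over all regions with a single siControl peak was not recomputed in these settings. The unequal length of the lists moves with the unequal size of the sets, and its part was examined only by the setting with equal numbers of peaks.

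**Figure D1:**
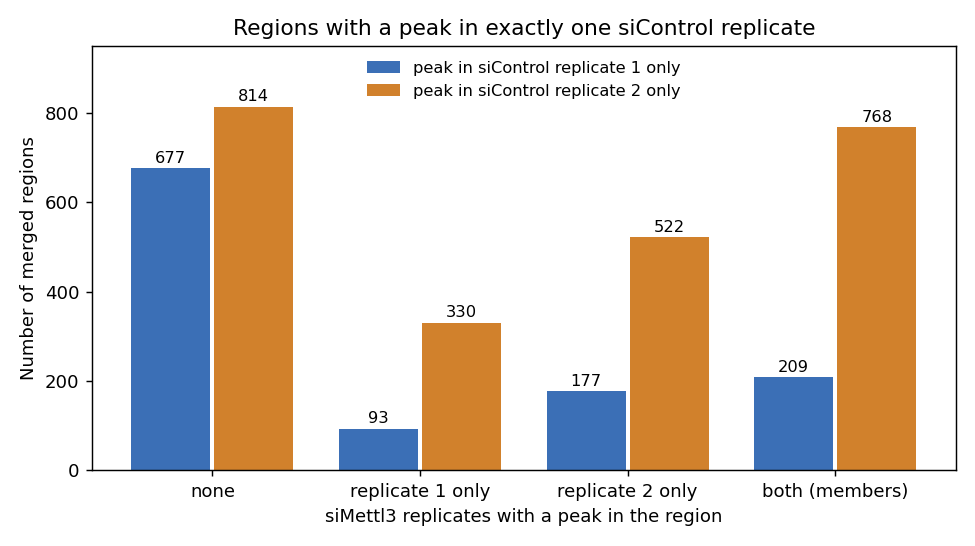
Number of merged regions (y axis) with a peak in exactly 1 siControl replicate, by which siMettl3 replicates had a peak (x axis); blue bars are siControl replicate 1 alone and orange bars siControl replicate 2 alone. The bars are 677 and 814 without a siMettl3 peak, and 209 and 768 with a peak in both siMettl3 replicates.

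The calls were rarely close to the overlap rule and often close to the score cutoff. In all 960 regions with 1 peak per called sample, the 3 peaks had bases in common, which made up 81.3% of the joined region in the median. The smallest stretch common to the 3 peaks was 44 bases among the siControl1-shared regions and 382 bases among the siControl2-shared regions. Just outside the rule, the nearest peak of the other control came within 130 bases of a siControl1-shared region at chr19:45680997-45683800, and within 23 bases of a siControl2-shared region at chr19:57838956-57839881 (coordinates of build hg19, which the submitters' notes name). The lowest control score was 50.08 in the siControl1-shared regions and 50.14 in the siControl2-shared regions. Regions in which the other control just passed its cutoff were called in all 4 samples and so are not among the 977. There, 93 of 3875 regions had a siControl replicate 2 score under 60, and 227 had a siControl replicate 1 score under 60.

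Scores were lower in these regions than in regions called in all 4 samples, and lowest in the control of the siControl1-shared regions. The median score there was 71.8 for siControl replicate 1, against 92.6 and 93.3 for siMettl3 replicates 1 and 2. In the siControl2-shared regions it was 86.7 for siControl replicate 2, against 100.4 and 100.1 for siMettl3 replicates 1 and 2. Both siMettl3 replicates thus had a higher median score than the called control in both sets. In the regions of all 4 samples the medians were 167.5 and 215.0 for siControl replicates 1 and 2, and 164.8 and 183.3 for siMettl3 replicates 1 and 2. A score under 60 was found in 61 of the 209 peaks of siControl replicate 1 (29.2%), against 124 of the 768 of siControl replicate 2 (16.1%). In the siMettl3 replicates the share under 60 was between 12.6% and 16.7% in either set. In the regions of all 4 samples it was 5.86% and 2.40% for siControl replicates 1 and 2. For siMettl3 replicates 1 and 2 it was 5.47% and 2.99% there.

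The called control was the weakest of the 3 samples in 118 of the 209 siControl1-shared regions (56.5%) and in 317 of the 768 siControl2-shared regions (41.3%). In the regions of all 4 samples, siControl replicate 1 scored below both siMettl3 replicates in 39.5% and siControl replicate 2 in 23.7%. All 3 called samples reached a score of 100 in 11 siControl1-shared regions (5.26%) and in 151 siControl2-shared regions (19.7%). For the same 3 samples in the 3875 regions called in all 4, all reached it in 54.7% (with siControl replicate 1) and 60.7% (with siControl replicate 2). In 61 siControl1-shared and 189 siControl2-shared regions no sample reached a score of 100, against 229 and 168 of the 3875. The false discovery rate (FDR) listed with a peak was 100% for 112 of the 209 control peaks of the siControl1-shared regions (53.6%) and for 249 of the 768 of the siControl2-shared regions (32.4%). Of these control peaks, 15 (7.18%) and 152 (19.8%) had an FDR no higher than 50%. In the regions of all 4 samples, the FDR was 100% for 13.6% of siControl replicate 1 peaks and 5.03% of siControl replicate 2 peaks. There, 59.3% and 72.4% had an FDR no higher than 50%. The siMettl3 peaks of the 977 regions also had high FDRs. It was no higher than 50% for 206 (21.1%) in siMettl3 replicate 1 and 352 (36.0%) in siMettl3 replicate 2. In the regions of all 4 samples these shares were 50.7% and 74.6%. The lowest FDR of a siMettl3 peak in the 977 regions was 18.4% in replicate 1 and 19.9% in replicate 2.

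In size, the sets differed little. The joined regions had a median length of 1174 bases (quartiles 968 and 1766, from 451 to 5771) in the siControl1-shared set. In the siControl2-shared set it was 1123 bases (quartiles 893 and 1652, from 426 to 7780). The peak of siMettl3 replicate 1 had a median of 1079 bases in the siControl1-shared regions and 1016 in the siControl2-shared regions. The peak of siMettl3 replicate 2 had 1029 and 997 bases. In median siMettl3 peak length, the siControl2-shared regions were thus shorter by a mean of 48 ± 21.9 bases (SD over 2 siMettl3 replicates). This order was not kept in every setting. With scores of at least 70 the siControl2-shared peaks were longer by 6.25 bases, and with equal numbers of peaks per sample by 29.3 bases, while with the FDR limited to 50% the difference was −5.75 bases. The control peaks had medians of 1024 and 995 bases, and peaks of regions called in all 4 samples between 1199 and 1253 bases. In 8 of the 209 (3.83%) and 28 of the 768 regions (3.65%), the longest of the 3 peaks was over 2 times as long as the shortest. This share was not computed for other regions.

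In tags, the sets differed more than in length. The median peak of the siControl1-shared regions held 188 tags in siControl replicate 1, and 233 and 174 tags in siMettl3 replicates 1 and 2. In the siControl2-shared regions it held 154 tags in siControl replicate 2, and 162 and 133 tags in siMettl3 replicates 1 and 2. The siControl2-shared regions therefore held 0.693 times the tags of the siControl1-shared regions in siMettl3 replicate 1 and 0.761 times in siMettl3 replicate 2. On the log2 scale the difference was −0.46 ± 0.096 (SD over 2 siMettl3 replicates). Per kb of peak it was −0.27 ± 0.018. The size of this difference depended on which peaks were kept. It was −0.29 with scores of at least 70, −0.18 with equal numbers of peaks, −0.10 when the FDR was limited to 50%, and between −0.50 and −0.32 with either siMettl3 replicate left out of the rule. The direction was the same in each of these settings.

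Set beside the regions of all 4 samples, the siControl1-shared regions were near them in tags in siMettl3 replicate 1 only. In siMettl3 replicate 2 and siControl replicate 1 they were below them. The siControl2-shared regions were below them in every called sample. The siControl1-shared median was 0.991 times that of the regions of all 4 samples in siMettl3 replicate 1. It was 0.853 times in siMettl3 replicate 2 and 0.828 times in siControl replicate 1. For the siControl2-shared regions the ratios were 0.687, 0.650 and, in siControl replicate 2, 0.595. The largest number of tags in a peak was 2815 in the siControl1-shared regions and 4320 in the siControl2-shared regions, both in siMettl3 replicate 1. The lowest was 41 and 34.

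In fold enrichment, the ratio of pulled-down over background signal, the order of the sets was the opposite of that in tags. The median fold enrichment of the siControl1-shared regions was 3.96 for siControl replicate 1, against 4.18 and 4.41 for siMettl3 replicates 1 and 2. In the siControl2-shared regions it was 4.42 for siControl replicate 2, against 4.44 and 4.84 for siMettl3 replicates 1 and 2. On the log2 scale, the siControl2-shared regions were higher by 0.085 in siMettl3 replicate 1 and by 0.13 in siMettl3 replicate 2, a mean of 0.11 ± 0.035 (SD over 2 siMettl3 replicates). The quartiles overlapped widely, from 1.84 to 2.27 against 1.89 to 2.47 in siMettl3 replicate 1. With an FDR of at most 50% the difference was 0.062. The medians of both sets were below those of regions called in all 4 samples, by 0.13 and 0.20 (siMettl3 replicates 1 and 2) for the siControl1-shared regions and by 0.040 and 0.064 for the siControl2-shared regions.

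**Figure D2:**
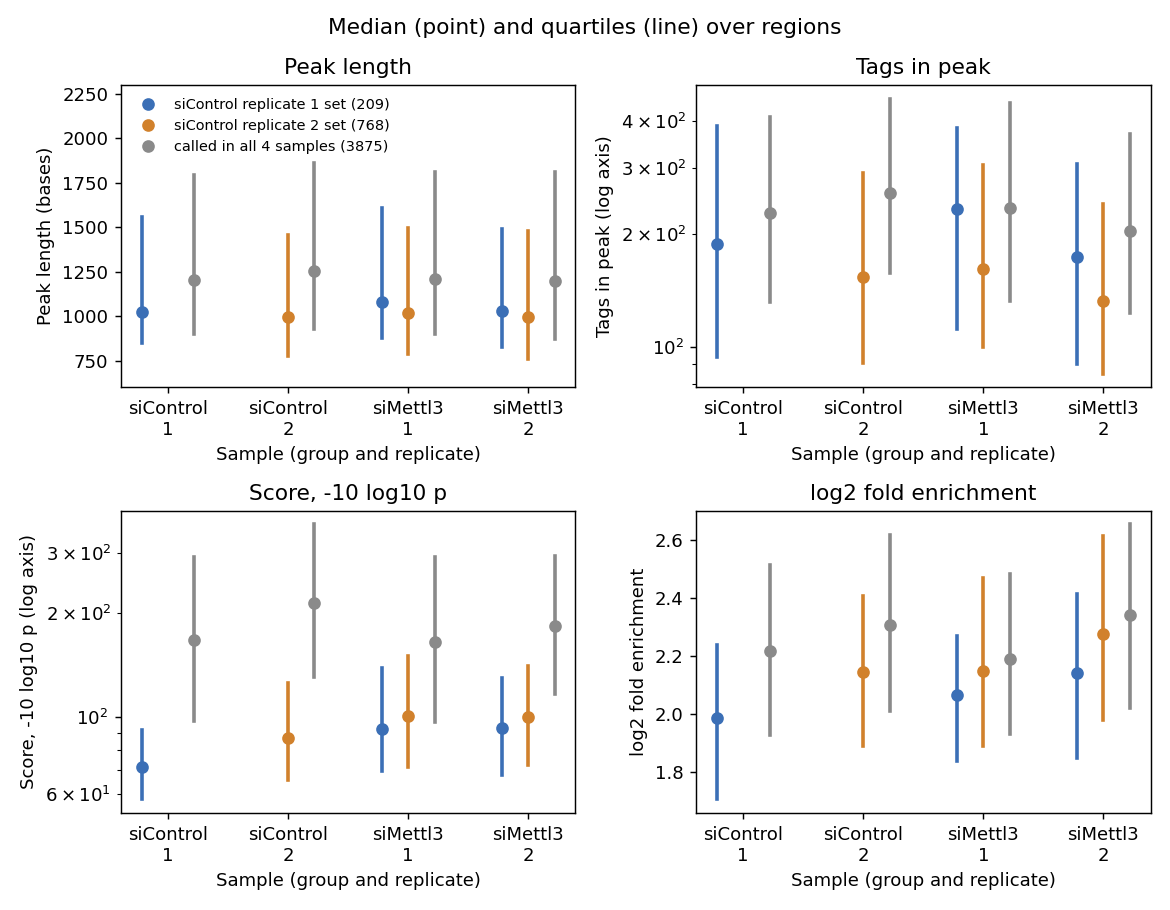
Median (point) and quartiles (line) of peak length, tags, score and log2 fold enrichment (y axes, with tags and score on log axes) in each sample (x axes), for 209 siControl1-shared regions (blue), 768 siControl2-shared regions (orange) and 3875 regions called in all 4 samples (grey). In both siMettl3 replicates the orange points lie below the blue ones for tags (162 against 233 and 133 against 174) and above them for score and enrichment.

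Regions rich in tags had low fold enrichment in both sets, so the sets were also set side by side within classes of tags. Tags were not matched within a class, and the class with most tags is wide. The 977 regions were cut into 4 classes by the mean tags of the siMettl3 replicates. The class with most tags, from 291 to 3730, held 33.5% of the siControl1-shared and 22.7% of the siControl2-shared regions. The class with fewest tags, from 35.5 to 96.0, held 23.0% and 26.2%. Median log2 fold enrichment in siMettl3 replicate 2 was 2.43 and 2.54 in the lowest class, 2.25 and 2.38 in the next, 2.15 and 2.20 in the next, and 1.85 and 1.92 in the highest, with the siControl1-shared value first. The siControl2-shared value was the higher one in all 4 classes. In siMettl3 replicate 1 it was also higher in each class, but in the class from 154.5 to 290.5 tags the values were 2.11 and 2.11 and cannot be told apart. Across regions, Pearson's r of log2 tags with log2 fold enrichment was −0.50 and −0.57 in siMettl3 replicates 1 and 2 over the 209 regions, and −0.42 and −0.51 over the 768. Over the regions of all 4 samples r was −0.36 and −0.49, so the relation is not particular to these sets. Both measures come from the same library and the regions are not independent replicates.

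**Figure D3:**
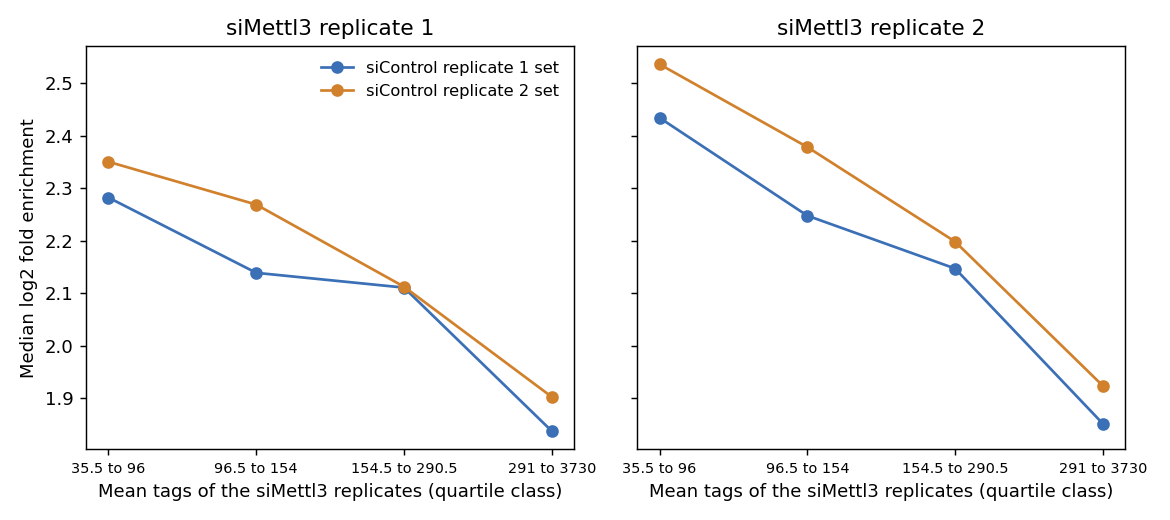
Median log2 fold enrichment (y axis) in siMettl3 replicates 1 (left) and 2 (right) by quartile class of the mean siMettl3 tags (x axis, range of each class), for siControl1-shared (blue) and siControl2-shared (orange) regions. Enrichment is lower in classes with more tags, and the orange points are above the blue ones except in the class from 154.5 to 290.5 tags of siMettl3 replicate 1, where both are at 2.11.

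Enrichment in the siMettl3 replicates was compared with the control that had the peak. Over the 209 siControl1-shared regions, log2 fold enrichment in siMettl3 replicate 1 was above that in siControl replicate 1 by a median of 0.092 (quartiles −0.11 and 0.26), and in siMettl3 replicate 2 by 0.14 (quartiles −0.030 and 0.37). The mean of these medians was 0.12 ± 0.034 (SD over 2 siMettl3 replicates). Over the 768 siControl2-shared regions the medians against siControl replicate 2 were 0.047 and 0.14, with a mean of 0.095 ± 0.068. Centring every sample on the regions of all 4 samples changed the means to 0.070 (siControl1-shared) and 0.14 (siControl2-shared), which turned the order of the sets. With siMettl3 replicate 2 left out of the rule and of the mean, they were 0.057 and 0.034. With siMettl3 replicate 1 left out instead, they were 0.12 and 0.14, which also turned the order. Equal numbers of peaks gave 0.17 and 0.086. The same differences over the regions of all 4 samples were −0.011 and 0.10 against siControl replicate 1, and −0.10 and 0.022 against siControl replicate 2.

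Enrichment was higher in both siMettl3 replicates than in siControl replicate 1 in 113 of the 209 regions (54.1%), where the share over all 4084 regions called in these 3 samples was 41.4%. It was lower in both in 38 regions (18.2%, against 29% over all). For the siControl2-shared regions, enrichment was higher in both siMettl3 replicates in 353 of 768 (46.0%, against 30.8% over the 4643 regions called in these 3 samples) and lower in both in 168 (21.9%, against 35.4%). A control peak was required in these regions and missing from the other control, so the rule itself used this contrast and these shares support no statement on the knockdown. In tags, siMettl3 replicate 1 was above the called control by a median of 0.13 (log2) in the siControl1-shared and 0.066 in the siControl2-shared regions. The difference of siMettl3 replicate 2 from the called control was −0.24 in both. Over the regions of all 4 samples, siMettl3 replicates 1 and 2 differed by 0.093 and −0.16 from siControl replicate 1. From siControl replicate 2 they differed by −0.075 and −0.33. Tags are not scaled for depth.

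**Figure D4:**
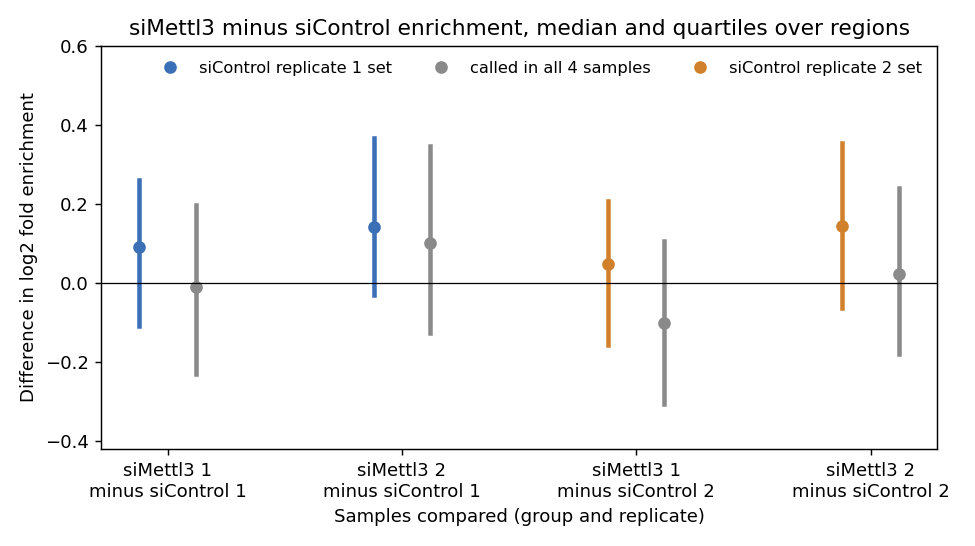
Difference in log2 fold enrichment between a siMettl3 and a siControl replicate (y axis) for each pair of samples (x axis), as median (point) and quartiles (line) over siControl1-shared regions (blue), siControl2-shared regions (orange) and regions called in all 4 samples (grey). The coloured medians lie between 0.047 and 0.14 and the grey ones between −0.10 and 0.10, and all quartile ranges include 0.

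The summits of the knockdown replicates lay close together. The summits, the positions of highest signal, of siMettl3 replicates 1 and 2 were a median of 40 bases apart in the siControl1-shared regions and 31 bases apart in the siControl2-shared regions, against 42 bases in the regions of all 4 samples. The summit of the called control was a median of 17 and 13 bases from that of siMettl3 replicate 1. From that of siMettl3 replicate 2 it was 33 and 30 bases. In the regions of all 4 samples these distances were 19 and 18 bases, and 42 and 43 bases, for siControl replicates 1 and 2. At most 100 bases separated the siMettl3 summits in 174 of 209 (83.3%) and 650 of 768 regions (84.6%). In the regions of all 4 samples this held for 3105 of 3875 (80.1%). Fold enrichment of the siMettl3 replicates correlated with r = 0.674 and 0.718 across the regions of each set, and with r = 0.746 across the 3875 regions of all 4 samples.

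A peak of the control without a call seldom lay beside a region, at 1 kb about as seldom as around other regions. The nearest peak of siControl replicate 2 was a median of 25.8 kb from the siControl1-shared regions, and lay within 1 kb of 11 of them (5.26%) and within 5 kb of 47 (22.5%). The nearest peak of siControl replicate 1 was a median of 40.2 kb from the siControl2-shared regions, and lay within 1 kb of 35 (4.56%) and within 5 kb of 93 (12.1%). Other peaks of the control that did have a call were a median of 35.9 kb from the siControl1-shared and 30.8 kb from the siControl2-shared regions. They lay within 5 kb of 37 siControl1-shared regions (17.7%) and of 105 siControl2-shared regions (13.7%). Around the regions of all 4 samples, another peak of siControl replicate 1 lay within 1 kb in 4.52% and another peak of siControl replicate 2 in 6.12%. Within 5 kb these shares were 16.9% and 20.2%. In regions with both siMettl3 peaks and no siControl peak, siControl replicate 1 had a peak within 1 kb in 5.15% and within 5 kb in 15.6%. For siControl replicate 2 these shares were 6.08% and 19.3%. The list of siControl replicate 2 is the longer one, and the part of list length in these distances was not tested. Another of the 977 regions lay within 10 kb of 30 of them (3.07%), a share that was not computed for other regions. These 30 regions formed 15 neighboring pairs, of which 8 joined a siControl1-shared with a siControl2-shared region.

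The regions lay on all autosomes and on chromosome X. Chromosome 19, which is rich in genes, held 24 siControl1-shared (11.5%) and 90 siControl2-shared regions (11.7%), the most of any chromosome in both sets. It held 7.30% of the regions called in all 4 samples and 7.14% of all regions. On chromosome 19, 24.8% of the 460 regions with both siMettl3 peaks had a single control peak, where 17.8% did over the genome. On chromosome X it was 35 of 136 regions (25.7%), and 32 of these 35 had the peak of siControl replicate 2. On chromosome 12 it was 22.2%, and on chromosome 13 it was 10.0% of 90 regions. The sets had like shares on most chromosomes. On chromosome 21 all 11 regions were siControl2-shared. These shares are counts over regions and were not tested.

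**Figure D5:**
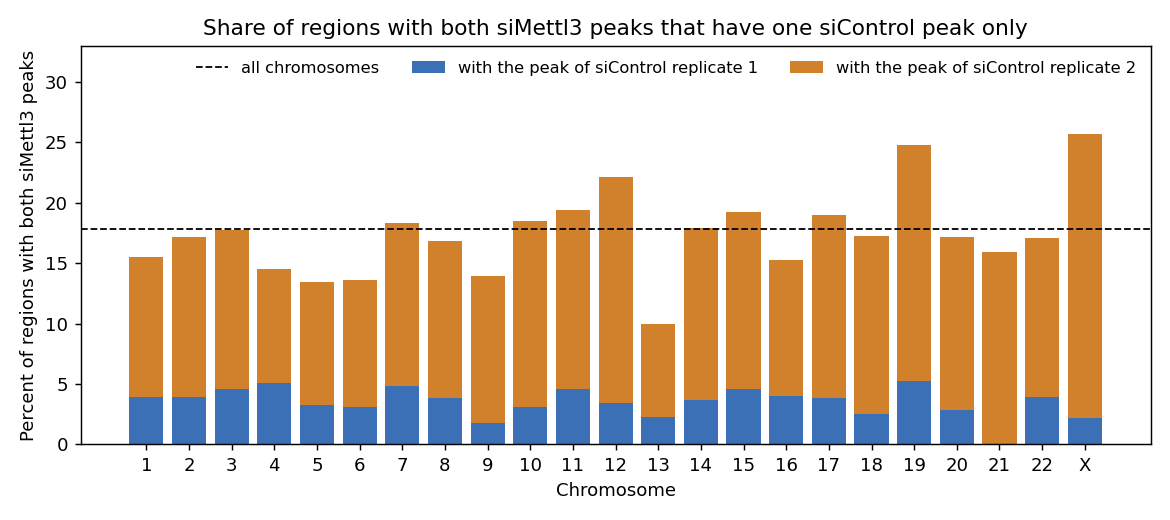
Percent of the regions with both siMettl3 peaks that had a peak in 1 siControl replicate (y axis) on each chromosome (x axis), stacked by siControl replicate 1 (blue) and 2 (orange), with the value over all chromosomes (17.8%) as a dashed line. Chromosomes X (25.7%), 19 (24.8%) and 12 (22.2%) stand highest and chromosome 13 (10.0%) lowest.

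Regions were also ranked by their lowest score over the 3 called samples, with the highest first. The first in the siControl1-shared set was chr11:86661307-86663802, with scores of 218.7 for siControl replicate 1, and 289.9 and 231.8 for siMettl3 replicates 1 and 2. The FDR listed with its peaks was still 24.7%, 33.2% and 25.2%. Its peaks held 1055, 1063 and 802 tags at fold enrichments of 2.68, 3.20 and 2.72, and the nearest peak of siControl replicate 2 was 704725 bases away. It was a region of many tags and low enrichment in all 3 samples. The next, chr3:50391697-50393487, had scores of 263.4, 425.9 and 176.5 and fold enrichments of 3.88, 4.09 and 4.03. At chr3:186952105-186954535 the tags were 387 over a peak of 2431 bases in siControl replicate 1, and 162 and 140 over peaks of 1462 and 1303 bases in the siMettl3 replicates, while fold enrichment was 4.09, 3.81 and 5.87.

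In the siControl2-shared set the first region in this order was chr2:74708481-74710956. The FDR listed with its peaks was 9.87% for siControl replicate 2, and 22.1% and 20.8% for siMettl3 replicates 1 and 2. Its scores were 501.7 for siControl replicate 2, and 812.7 and 331.0 for siMettl3 replicates 1 and 2, with 489, 666 and 548 tags and fold enrichments of 5.11, 5.03 and 3.91. The siMettl3 replicates lay on either side of the control in score. At chr17:41142722-41145750 the samples were alike, with scores of 335.9, 311.9 and 338.7 and fold enrichments of 5.22, 5.59 and 5.66. At chr7:191930-194131 the scores were 429.3, 652.3 and 274.2. These 3 regions scored above 270 in every called sample and had no peak in siControl replicate 1, whose nearest peaks were 17888, 51500 and 5282 bases away.

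The regions with most tags were wide and weakly enriched. Among the siControl1-shared regions, chr19:10797682-10803452 was both the longest, at 5771 bases, and the one with most tags, 2587, 2815 and 1473 in siControl replicate 1 and siMettl3 replicates 1 and 2. Its score in siControl replicate 1 was 51.2, next to the cutoff. At chr17:43224705-43228149 the order was the reverse, with a score of 707.6 in siControl replicate 1 but 79.1 and 137.8 in the siMettl3 replicates. Its fold enrichments were nevertheless close, at 2.73, 2.68 and 3.11. The region chr7:75700301-75705064, 4764 bases long, scored 66.6 in siControl replicate 1 and 542.9 and 251.1 in the siMettl3 replicates. A region of 4975 bases on chromosome 8 completed both lists, with 1851, 1725 and 1390 tags.

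Among the siControl2-shared regions, chr2:129022703-129027002 had the most tags, 4230 in siControl replicate 2 and 4320 and 3140 in the siMettl3 replicates, at fold enrichments of only 1.84, 1.87 and 2.07. Next came chr2:220403235-220407389 (4085, 4024 and 2919 tags) and chr16:4430624-4433996 (3304, 2430 and 1750 tags), also with fold enrichments of at most 2.37. In all 3 samples these regions combined many tags with an enrichment below the median of their set. The longest regions were chr7:4801445-4809224 (7780 bases), chr3:141161159-141167100 (5942 bases) and chr15:67482385-67487612 (5228 bases). In the last, the peak of siMettl3 replicate 2 was 1634 bases long and held 357 tags, where the peaks of siControl replicate 2 and siMettl3 replicate 1 were 5004 and 5002 bases long and held 1088 and 963 tags.

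The largest excess of siMettl3 over control enrichment was at chr2:202898358-202901883, a siControl2-shared region. Its peak was 773 bases long in siControl replicate 2 and 3526 and 3475 bases long in the siMettl3 replicates, with 61, 474 and 419 tags. Fold enrichment was 4.40 in the control and 10.7 and 9.31 in the siMettl3 replicates, and the scores were 67.3, 942.1 and 697.8. Both siMettl3 replicates were far above the control in each of these measures, and the mean log2 difference in enrichment was 1.18. At chr6:132128746-132129611 the mean difference was 1.09 and at chr2:238969267-238970276 it was 0.98. In tags the control was not below both siMettl3 replicates in either region, with 280 against 193 and 163 in the first and 114 against 131 and 105 in the second.

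Among the siControl1-shared regions the largest excess was at chr7:100183240-100184137, where fold enrichment was 3.31 for siControl replicate 1, and 10.0 and 4.60 for siMettl3 replicates 1 and 2. The mean log2 difference of 1.04 came mostly from siMettl3 replicate 1 (1.60, against 0.47 in replicate 2). At chr10:111986690-111988352 both replicates were well above the control, with 7.89 and 10.7 against 4.82 (mean log2 difference 0.93). A region of 897 bases on chromosome 8 was the third, with 6.15 and 9.38 against 4.12 (0.88).

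Some regions were less enriched in both siMettl3 replicates than in the control that had the peak. The largest such difference in the siControl1-shared set was at chr2:11322677-11323765, with fold enrichments of 8.12 in siControl replicate 1 and 4.74 and 4.72 in the siMettl3 replicates. Its score was 624.6 in the control and 88.9 and 118.3 in the siMettl3 replicates, and its mean log2 difference was −0.78. The others were chr1:222838502-222839436 (−0.55) and chr6:16144942-16145742 (−0.50). In the siControl2-shared set, chr16:2659935-2661941 had 7.13 in siControl replicate 2 against 3.30 and 4.24 (−0.93). At chr1:38019200-38020019 it was 7.17 against 3.36 and 4.25 (−0.92), and at chr7:1065090-1066853 it was 5.43 against 3.18 and 2.60 (−0.92). In each of these 6 regions the enrichment of the other siControl replicate is unknown, since it had no peak there.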

How the data were processed

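HepG2 m6A-seq peak lists of 4 immunoprecipitated samples were used (2 siControl, 2 siMettl3). The input libraries entered only through the authors' peak calling. The submitters' processing notes name hg19, CASAVA 1.8.2 and MACS 1.4.2, without roles. The aligner and the calling settings are not given in the sources used here. Peaks were listed per sample, not on pooled replicates. The tags of a peak were deposited as a whole-number count over that sample's own peak, not scaled for depth, so no count model was fitted. The authors deposited a score (−10·log10 p, from 50 upward), a fold enrichment as a linear ratio, and the FDR in percent.

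Peaks were merged across samples at an overlap of at least 1 base. A sample's value in a region was its summed tags, summed peak length, highest score and highest fold enrichment (log2, no pseudocount). Medians over regions were taken per sample, with SD over the 2 siMettl3 replicates. Regions are not replicates, and no test was applied. Library depth is unknown, so no counting interval is given.

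Regions were named, in each set, as the 3 first by lowest score over the called samples, summed tags, length, and largest and smallest mean siMettl3 minus control log2 enrichment, and those at the edges of the rule. The members and lists were chosen with earlier results of these data known. No genome or annotation of hg19 was used here, so no gene or sequence is given. Merging and selection were tested on simulated data. Python 3.11.15, numpy 2.4.6, pandas 2.3.3, scipy 1.17.1 and matplotlib 3.10.9 were used.

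The alternatives were a score of at least 70, the same number of peaks per sample, an FDR of at most 50%, peaks covering at least 50% of a region, peaks up to 100 bases apart merged, each siMettl3 replicate left out, length-weighted or median-centred enrichment, and tags per kb.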

Additional observations from a re-analysis of the deposited data

How the results depend on the processing

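Of 66 values recomputed, 43 moved by less than the spread between replicates or, for counts, by less than 1.5 times. Length weighting, which touches only regions with several peaks in a sample, and centring within a sample for differences between the sets are not counted, since they cannot or can hardly change the value. With a score of at least 70, the set difference (siControl2-shared minus siControl1-shared) in siMettl3 peak length reversed from −48 to 6.25 bases, the difference in tags became −0.29, that in log2 enrichment 0.14, and the share of regions with a peak of the other control within 1 kb changed from 4.71% to 3.12%. With equal numbers of peaks from every sample, the length difference reversed to 29.25 bases, the tags difference became −0.18, the siControl2-shared regions numbered 492, and the siMettl3 minus siControl replicate 1 difference became 0.17. With an FDR of at most 50%, 352 regions were left (50 and 302), the length difference was −5.75 bases, the tags difference −0.10, the enrichment difference 0.062 and the share within 1 kb 0.852%. The tags difference per kb was −0.27. Median centring brought the siMettl3 minus control difference to 0.070 (siControl replicate 1) and 0.14 (siControl replicate 2, from 0.095). The causes were not tested, beyond that stricter limits keep fewer peaks.

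With either siMettl3 replicate left out, the rule asks for fewer peaks and found 1400 to 1676 regions (302 to 386 siControl1-shared, 1098 to 1290 siControl2-shared). The length difference ranged from −84.5 to −46 bases, the tags difference from −0.50 to −0.32, the enrichment difference from 0.088 to 0.13 and the share within 1 kb from 5.36% to 5.97%. The siMettl3 minus control difference ranged from 0.057 to 0.12 (siControl replicate 1) and from 0.034 to 0.14 (siControl replicate 2). A siControl replicate cannot be left out, since the rule needs both. No paired analysis was possible because each region has a peak in only 1 siControl replicate, and so at most 1 same-numbered pair.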

Other observations

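The mirror pattern, a peak in both siControl replicates and in exactly 1 siMettl3 replicate, was found in 1174 of the 12221 joined regions. Of these, 903 (76.9%) had the peak of siMettl3 replicate 2 and 271 that of siMettl3 replicate 1. Where no siControl replicate had a peak, siMettl3 replicate 2 alone was called in 1399 regions and siMettl3 replicate 1 alone in 907. The share of siMettl3 replicate 2 over all regions with exactly 1 siMettl3 peak was not computed. In both patterns the replicate with the longer peak list had the larger share. For the mirror pattern, the part of list length was not tested.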
